A study of Mus musculus with 36 samples.

Results

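The levels of 9 genes of hepatic glucose metabolism were followed in the livers of mice that differ in 1 amino acid of the oxysterol receptor LXRalpha. The genes are Slc2a2, Gckr, Khk, Pklr, Pcx, Pck1, Fbp1, G6pc and Ppargc1a; they were taken by their symbols from a table of 49315 genes, each symbol matched 1 row, and all 9 were among the 16638 genes tested. CRISPR was used to change tryptophan 441 of LXRalpha (written Nr1h2 in the submitters' design text) to phenylalanine in the mouse line, and no restriction to a cell type is named. Mice carried tryptophan on both alleles (W/W, the controls), 1 allele of each kind (W/F) or phenylalanine on both alleles (F/F). All were male and 11 to 12 weeks old. A first cohort stayed on normal chow, with no gavage named for it. The others ate a Teklad diet that promotes MASH (metabolic dysfunction-associated steatohepatitis), high in fat and cholesterol, for 4 weeks, and received vehicle or 10 mg/kg T0901317, a synthetic LXR agonist, by mouth each day over the last 2 weeks. Each of the 9 groups held 4 mice, and polyA RNA of whole liver was sequenced. Because chow mice were a separate cohort, diet and cohort cannot be told apart.

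The liver takes up and releases glucose through the transporter encoded by Slc2a2, and the regulatory protein of Gckr restrains the trapping of glucose in the cell when sugar is scarce. Glycolysis ends at liver pyruvate kinase (Pklr), fructose enters through ketohexokinase (Khk), and both genes are known targets of the carbohydrate-sensing factor ChREBP, encoded by Mlxipl, itself a known LXR target. In the opposite direction, pyruvate carboxylase (Pcx), phosphoenolpyruvate carboxykinase (Pck1), fructose-1,6-bisphosphatase (Fbp1) and glucose-6-phosphatase (G6pc) carry gluconeogenesis. The coactivator PGC-1alpha (Ppargc1a) is known for raising that program in fasting.

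Stretches of 250 bases before the annotated start of 4 of the genes are shown because Pklr and Khk, and Pck1 and Ppargc1a, differed between F/F and W/W on vehicle in opposite directions on TPM as deposited, though Pck1 did not after rescaling. The sequences are from RefSeq on GRCm38.p6, 5′ to 3′ on the strand of the gene, with a match to a searched motif in capitals. Starts here are those of these RefSeq windows and can differ from the gene coordinates of the GRCm38 annotation given below. By those coordinates the Pklr stretch lies inside the gene, and CACGTG of Khk lies after the gene start. Of the Pklr windows, only that with the element is shown. Promoter windows were found for all 9 genes (11 windows, since Pklr and Pcx have 2 each), and shares are over 32851 windows of the same length.
Pklr, chr3:89136373-89136622, plus strand, carbohydrate response element (CACGNG, 5 bases of any kind, CNCGTG): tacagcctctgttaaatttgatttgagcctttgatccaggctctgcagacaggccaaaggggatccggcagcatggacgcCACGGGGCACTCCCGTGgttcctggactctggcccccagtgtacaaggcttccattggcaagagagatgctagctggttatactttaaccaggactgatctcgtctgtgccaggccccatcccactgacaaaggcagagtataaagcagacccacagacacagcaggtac
Khk, chr5:30921309-30921558, plus strand, E-box CACGTG: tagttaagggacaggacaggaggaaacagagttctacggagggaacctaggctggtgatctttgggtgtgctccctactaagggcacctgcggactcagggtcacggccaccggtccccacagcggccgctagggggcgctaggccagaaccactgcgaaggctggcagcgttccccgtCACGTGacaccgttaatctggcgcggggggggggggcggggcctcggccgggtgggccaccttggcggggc
Pck1, chr2:173152823-173153072, plus strand, cAMP response element variant TTACGTCA: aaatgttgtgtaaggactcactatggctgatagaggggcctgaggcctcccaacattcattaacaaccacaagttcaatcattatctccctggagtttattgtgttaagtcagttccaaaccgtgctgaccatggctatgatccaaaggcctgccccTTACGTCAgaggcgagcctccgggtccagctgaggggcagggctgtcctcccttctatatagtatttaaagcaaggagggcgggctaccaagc
Ppargc1a, chr5:51567726-51567975, minus strand, cAMP response element core ACGTCA: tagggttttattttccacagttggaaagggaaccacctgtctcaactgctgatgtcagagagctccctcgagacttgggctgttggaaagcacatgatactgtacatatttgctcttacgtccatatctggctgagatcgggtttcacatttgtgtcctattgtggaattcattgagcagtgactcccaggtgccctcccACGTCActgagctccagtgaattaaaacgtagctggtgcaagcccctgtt
Both strands were searched. The carbohydrate response element lay 170 to 154 bases before the start of Pklr and occurred in 0.0396% of all windows, and in no window of the other 8 genes. CACGTG was found in Khk, 71 to 66 bases before its start, and in Pcx, against 6.02% of all windows. TTACGTCA, which contains ACGTCA, lay 93 to 86 bases before the start of Pck1 (0.447% of all windows), and ACGTCA lay 50 to 45 bases before that of Ppargc1a (6.47%). TATAAA was found in Pklr and G6pc (12.4%). TGACGTCA (1.55%), the forkhead site TGTTTAC (3.17%) and the LXR element, 2 copies of AGGTCA with 4 bases between them (0.0152%) were not in these windows, which says only that those letters are not there. A match is a description of the sequence and no evidence of binding.

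Values are TPM (transcript abundance scaled to gene length and to a fixed total of 1000000, so levels of different genes can be set side by side), and in lists of 4 values the order is replicate 1 to 4. The low values of each library are spaced in whole reads, which gave a depth, in units of 1000000 reads, of 18.1 to 35.8 with a median of 23.9. Even Ppargc1a, the least abundant of the 9, rested on 72 or more reads in each library. The receptor change is a single amino acid, so no expression level checks the genotype labels. TPM are shares of a library, and the libraries differed in what fills them. On the MASH diet with vehicle, 8 hepatocyte markers summed to 73428 to 95691 TPM in W/W, to 57864 to 67706 TPM in W/F and to 34366 to 38684 TPM in F/F. In the same groups 6 Kupffer cell and macrophage markers summed to 161 to 302, 2545 to 3337 and 3109 to 4047 TPM. The 4 sinusoidal endothelium markers summed to 51.1 to 61.8, 30.0 to 40.7 and 41.7 to 60.6 TPM. Of F/F against W/W on vehicle, 5 of 8 hepatocyte markers fell, 4 of 6 macrophage markers rose and 2 fell, and all 6 stellate cell, 4 bile duct and 3 neutrophil markers rose. Over all tested genes 69.3% were higher and 7.13% lower there at an adjusted p under 0.05 in limma. The share of macrophage markers that rose thus lies near that of all genes. After rescaling (below) all 8 hepatocyte markers were lower, and 5 stellate cell markers were higher and 1 lower, against 31% higher and 28.1% lower over all genes. None of these markers was at 0 throughout either group. In whole liver, fewer cells of a type and less RNA per cell cannot be told apart, and the part of these markers in the results below was not tested. Kidney markers summed to at most 0.0833 TPM in these vehicle groups, and pancreas markers reached 107 TPM in W/W vehicle replicate 1, the highest of all libraries. The 3 intestine markers, 1 of them at 0 in each of these groups, differed more. They summed to 326 to 534 TPM in W/W, 114 to 126 TPM in W/F and 74.2 to 100 TPM in F/F on vehicle. Their part was not tested.

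Because the whole distribution shifted, each difference is given on 2 scales: TPM as deposited, and rescaled TPM, in which each library was divided by a size factor, the median over genes of its TPM relative to the geometric mean of all libraries. As deposited, the median tested gene was 0.70 higher on the log2 scale in F/F than in W/W on vehicle, 0.52 higher in W/F than in W/W on vehicle, 0.43 higher in F/F than in W/W under T0901317, 0.29 higher in F/F than in W/W on chow, and -0.49 in T0901317 against vehicle in W/F. Rescaling set these medians near 0. P-values weigh each difference against the spread among mice of the same group, pooled over the 9 groups, and not against the compared mice alone. Differences are of log2(TPM + 1), tested with limma over all genes and 36 libraries, adjusted after Benjamini and Hochberg, and called at an adjusted p under 0.05.

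When the 9 groups were ranked by mean, neighbours overlapped for every gene at every step but 4. Khk had a gap between W/F T0901317 and the next lower group, Fbp1 had gaps below F/F chow and below W/W vehicle, and Ppargc1a had one below F/F T0901317. Such gaps were not counted over all tested genes, so whether 4 is few or many is not known.

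**Figure D1:**
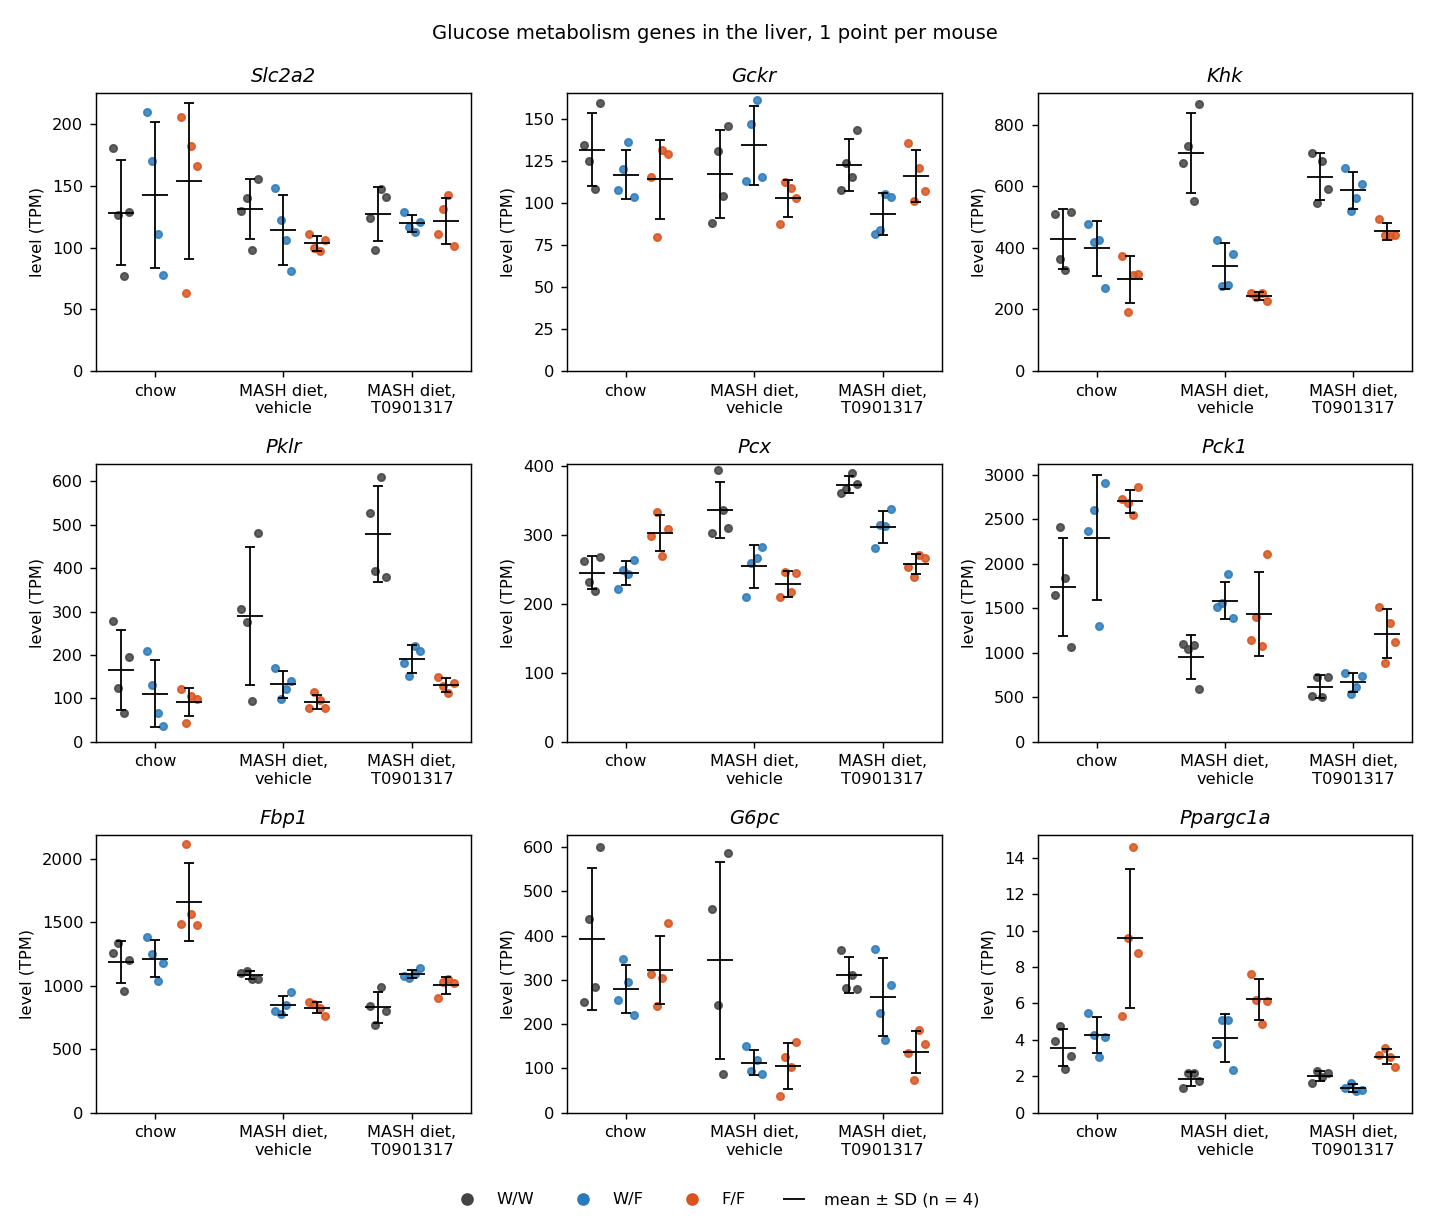
Level in TPM (vertical axis, linear, from 0) of the 9 genes in each of 36 mice, by diet and treatment (horizontal axis) and genotype (colour); bars give mean ± SD of 4 mice. Khk on the MASH diet with vehicle falls from W/W to W/F and F/F with no overlap with W/W, while Slc2a2 overlaps between neighbouring groups throughout.

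On chow, none of the 9 genes passed the test between W/F and W/W in limma (0 called, 0 at an unadjusted p under 0.05 as well, with 0.487% of all genes called, 0.198% higher and 0.288% lower). On the MASH diet with vehicle, 6 genes differed between W/F and W/W: Khk, Pcx, Fbp1 and G6pc were lower and Pck1 and Ppargc1a higher, where 68.5% of all genes were called, 61.6% higher and 6.83% lower. F/F against W/W on vehicle gave 7, the same 6 and Pklr, lower, where 76.5% of all genes were called, 69.3% higher and 7.13% lower. In that comparison 5 of the 9 genes were lower, while most called genes were higher. The median of the 9 was -0.39 beside 0.70 for all genes. After rescaling, 7 of the 9 were lower and only Ppargc1a higher, with a median of -1.25, where 59.1% of all genes were called, 31% higher and 28.1% lower. The 9 genes were chosen with earlier results of these data known, so these contrasts with all genes are descriptions and no test. All comparisons of genotypes within a treatment, and of treatments within a genotype, share groups, so their counts are not independent of one another.

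With T0901317, W/F against W/W had 1 called gene, Fbp1, higher (9.88% of all genes called, 3.65% higher and 6.23% lower). F/F against W/W had 6: Pklr, Khk, Pcx and G6pc lower, Pck1 and Fbp1 higher (63.2% of all genes, 56.3% higher and 6.96% lower). On chow, F/F against W/W had 5: Khk lower, and Pck1, Fbp1, Pcx and Ppargc1a higher (46.7% of all genes, 43% higher and 3.65% lower). The counts were 3 on chow without W/W chow replicate 4, 3 under T0901317 without F/F T0901317 replicate 2, and 0 for W/F under T0901317 without W/W T0901317 replicate 2. Shares of all genes called were not counted with a library left out, here or below. Markers of other cells moved in the chow comparison too: from W/W to F/F, macrophage markers summed to 111 to 157 and 456 to 725 TPM, those of lipid-associated macrophages to 57.7 to 77.9 and 769 to 1084 TPM, and those of stellate cells to 69.0 to 106 and 243 to 463 TPM. Their part was not tested. After rescaling the genes called on chow for F/F against W/W were Gckr, Khk and Pklr, lower, and Ppargc1a, higher (29.9% of all genes, 15.9% higher and 14% lower). F/F against W/F gave 3 on chow (Fbp1, Pcx and Ppargc1a, higher; 41.4% of all genes called, 37.9% higher and 3.43% lower), 0 on vehicle (21.3%, 19% and 2.3%; 3 of the 9 at an unadjusted p under 0.05 and 3 called after rescaling) and 3 under T0901317 (Pck1 and Ppargc1a higher, Pcx lower; 62.6%, 58.5% and 4.08%). The test as deposited thus did not separate W/F from F/F on vehicle, which does not show that they are alike: the 95% intervals of the F/F minus W/F difference, not adjusted for the number of genes, were -0.83 to -0.09 for Khk, -0.33 to 0.04 for Pcx and -1.39 to 0.37 for Pklr. Without F/F vehicle replicate 3, W/F vehicle replicate 2 or W/F vehicle replicate 3 this comparison had 1, 2 and 1 called genes.

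**Figure D2:**
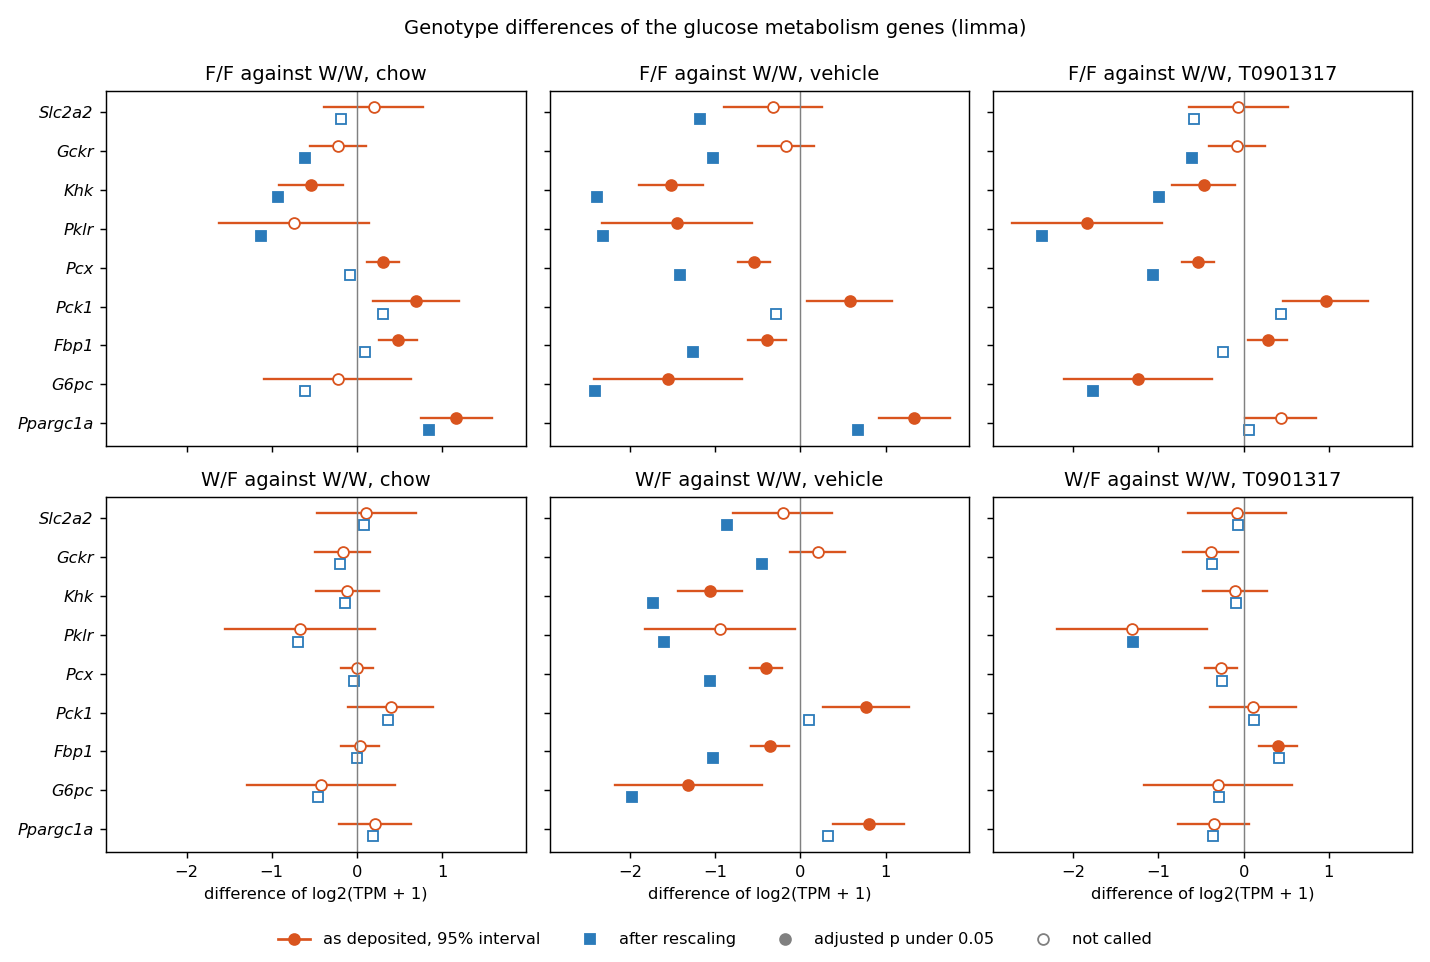
Differences of log2(TPM + 1) between genotypes (horizontal axis) for the 9 genes in the 3 treatments, as deposited (circles, with 95% intervals) and after rescaling (squares); filled symbols passed an adjusted p of 0.05 in limma. In the F/F panels every square lies left of its circle. Khk, Pklr and G6pc in F/F on vehicle lie below 0 on both scales, while Pck1 lies at 0.58 and at -0.29.

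T0901317 against vehicle in W/W gave 1 called gene, Fbp1, lower, a share of the 9 close to that of all genes, where 10.8% of all genes were called, 7.87% higher and 2.91% lower; the count was 0 without W/W T0901317 replicate 2 or with a fit of those 2 groups alone, and 2 without W/W vehicle replicate 4. In W/F livers it gave 7, with Khk, G6pc, Fbp1 and Pcx higher and Gckr, Pck1 and Ppargc1a lower, where 65.9% of all genes were called, 6.59% higher and 59.3% lower. In F/F livers it gave 2, Khk higher and Ppargc1a lower (35.1% of all genes, 3.95% higher and 31.2% lower). The test of the difference between responses called Khk, Fbp1, Gckr and Ppargc1a for W/F against W/W (58.5% of all genes) and Khk, Fbp1 and Ppargc1a for F/F against W/W (30.4%). These responses share the W/W groups. The MASH diet with vehicle against chow gave 4 called genes in W/W (Khk and Pcx higher, Pck1 and Ppargc1a lower; 12.9% of all genes, 2.59% higher and 10.3% lower), 2 in W/F (G6pc and Fbp1 lower; 61%, 52.4% and 8.53%) and 5 in F/F (Pck1, G6pc, Fbp1, Pcx and Ppargc1a lower; 55.8%, 46.5% and 9.27%). The W/W diet count was 2 without W/W chow replicate 2 or without W/W vehicle replicate 4, and 0 with a fit of those 2 groups alone. Shares of all genes called were not counted in fits of 2 groups alone either. The diet response differed from that of W/W for Khk, Fbp1 and Pcx in W/F (54.6% of all genes) and in F/F (46%).

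On rescaled TPM the number of the 9 genes called, with the share of all genes called in brackets, was for T0901317 against vehicle 1 (13.5%) in W/W mice, 8 (50.8%) in W/F mice and 5 (16.3%) in F/F mice. For diet it was 3 (15.4%), 8 (54.9%) and 8 (47%) in the same order. For W/F against W/W it was 0 (0.601%) on chow, 7 (53.1%) on vehicle and 1 (13.4%) with T0901317, where the called gene was Pklr, lower, in place of Fbp1. Between F/F and W/W mice on T0901317 it was 5 (46.9%). For F/F against W/F it was 3 (31.2%), 3 (10.6%) and 5 (40.3%) on chow, vehicle and T0901317. On chow these were Gckr and Khk, lower, and Ppargc1a, higher, and the calls of Fbp1 (0.090, adjusted p = 0.703) and Pcx (-0.047, adjusted p = 0.792) ended. With T0901317 they were Pklr, Khk, G6pc, Fbp1 and Pcx, all lower, and the calls of Pck1 (0.31, adjusted p = 0.386) and Ppargc1a (0.42, adjusted p = 0.0848) ended. For the differences between responses it was 5 (43.9%) and 2 (17.4%) for the agonist in W/F and F/F, and 4 (40.1%) and 4 (26.8%) for diet. The diet comparisons of the mutants went from 2 and 5 called genes to 8 each.

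Slc2a2 (ENSMUSG00000027690, GRCm38, chromosome 3, 28697903 to 28731359, plus strand) encodes GLUT2, the main glucose transporter of hepatocytes. As deposited, its group means were nearly flat across the 9 groups. Group means ran from 104 TPM in F/F vehicle to 154 TPM in F/F chow, a ratio of 1.49, and each group overlapped the next in the order of means. No comparison called it as deposited. On vehicle its level was 130.1, 141, 98.2 and 156 TPM in W/W, 149, 123, 106 and 81.1 TPM in W/F and 111, 99.4, 97.3 and 106 TPM in F/F. The 3 genotypes overlap. The F/F minus W/W difference was -0.32 ± 0.28 (SE), adjusted p = 0.307, with an interval of -0.90 to 0.26, and after rescaling it was -1.18, adjusted p = 0.000518. The call thus depends on the scale. Other rescaled differences were -0.87 for W/F minus W/W on vehicle, -0.74 and -0.79 for diet in W/F and F/F, and 0.70 for T0901317 against vehicle in W/F. F/F chow held 206, 63.0, 182 and 166 TPM, of which replicate 2 lay lowest; without it the diet difference in F/F was -0.83, adjusted p = 0.00685. An antisense gene, 1700112D23Rik, overlaps its locus but shares no exon base with it, at a mean of 1.05 TPM.

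Gckr (ENSMUSG00000059434, chromosome 5, 31297443 to 31327314, plus strand), a regulatory protein of the hepatocyte nucleus, varied even less, by a ratio of 1.44 between the highest and the lowest group mean, and each group overlapped the next. Its one called comparison as deposited was T0901317 against vehicle in W/F. Levels there were 113, 147, 161 and 116 TPM on vehicle and 81.6, 84.1, 105 and 104 TPM with T0901317, and every treated mouse lay below every vehicle mouse. The difference was -0.51 ± 0.16 (SE), adjusted p = 0.00596, but it was 0.092, adjusted p = 0.584 after rescaling, so the direction depends on the scale. In W/W the levels were 88.2, 131, 104 and 146 TPM on vehicle and 108, 124, 116 and 144 TPM with T0901317, and overlapped (0.083 ± 0.16 (SE), adjusted p = 0.835). The response in W/F differed from that in W/W by -0.59 ± 0.23 (SE), adjusted p = 0.0248 as deposited and by 0.078, adjusted p = 0.765 after rescaling. Leaving out any of W/F T0901317 replicate 1, W/F vehicle replicates 2 or 3, W/W T0901317 replicate 4 or W/W vehicle replicate 1 ended that call, with differences from -0.54 to -0.47. F/F against W/W was not called in any treatment as deposited, and was lower after rescaling on chow (-0.60, adjusted p = 0.000662), vehicle (-1.03, adjusted p = 5.89e-08) and T0901317 (-0.60, adjusted p = 0.00031).

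Khk (ENSMUSG00000029162, chromosome 5, 30921431 to 30931248, plus strand) encodes ketohexokinase, which commits fructose to metabolism. It rose with the MASH diet in W/W livers, was lower in mutant livers on that diet with vehicle, and rose with T0901317 in both mutants. On chow W/W mice had 509.7, 365, 329 and 515 TPM. On vehicle they had 676, 730.2, 553 and 868 TPM, all above the chow mice, a rise of 0.73 ± 0.18 (SE), adjusted p = 0.00768. W/F mice on vehicle had 426, 277, 278 and 380.2 TPM, and F/F mice 253, 239.6, 254 and 226 TPM. No mutant mouse reached the lowest W/W mouse on vehicle. The F/F minus W/W difference was -1.52 ± 0.18 (SE), adjusted p = 9.82e-09, or -2.38 after rescaling, and the W/F minus W/W difference was -1.06 ± 0.18 (SE), adjusted p = 7.47e-06, or -1.72 after rescaling. Both the diet response of W/F (-0.95 ± 0.26 (SE), adjusted p = 0.00266) and that of F/F (-0.98 ± 0.26 (SE), adjusted p = 0.00289) were below the W/W response, on both scales.

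Under T0901317 Khk was 709, 545, 681 and 590.2 TPM in W/W, 659, 520.4, 561 and 608 TPM in W/F and 495, 441, 438 and 442 TPM in F/F. W/W and W/F overlap, and F/F lies below both. The agonist raised Khk by 0.81 ± 0.18 (SE), adjusted p = 0.000288 in W/F and by 0.90 ± 0.18 (SE), adjusted p = 0.000578 in F/F, with every treated mouse above every vehicle mouse. In W/W the difference was -0.15 ± 0.18 (SE), adjusted p = 0.701. The responses of W/F and F/F exceeded that of W/W by 0.96 ± 0.26 (SE), adjusted p = 0.00211 and 1.05 ± 0.26 (SE), adjusted p = 0.00326, and by 1.63 and 1.39 after rescaling. F/F stayed below W/W with T0901317 (-0.47 ± 0.18 (SE), adjusted p = 0.0257), a call lost without W/W T0901317 replicate 1 (-0.41, adjusted p = 0.0750) or replicate 3, or without F/F T0901317 replicate 2; after rescaling it was -0.997, adjusted p = 7.98e-05. The lower level in F/F on chow (-0.54 ± 0.18 (SE), adjusted p = 0.0162) was lost without F/F chow replicate 2 (-0.34, adjusted p = 0.102) or without W/W chow replicate 1 or 4, and after rescaling was -0.92, adjusted p = 0.000435.

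Pklr (ENSMUSG00000041237, chromosome 3, 89136142 to 89146784, plus strand), liver pyruvate kinase and the last step of glycolysis, had the widest range of the enzymes, with a ratio of 5.21 between the highest group mean, W/W T0901317, and the lowest, F/F vehicle. With T0901317 it was 527, 393, 611 and 380.3 TPM in W/W, 181, 151, 221 and 210.3 TPM in W/F and 149, 128, 112 and 135 TPM in F/F. The 3 genotypes do not overlap there, and they order by the number of mutant alleles. F/F minus W/W was -1.84 ± 0.43 (SE), adjusted p = 0.0005 (-2.36 after rescaling). W/F minus W/W was -1.31 ± 0.43 (SE), adjusted p = 0.0501, just short of the threshold, and after rescaling it was -1.29, adjusted p = 0.0443. On vehicle Pklr was 306, 276, 94.9 and 482 TPM in W/W, 171, 97.8, 121 and 140.1 TPM in W/F and 78.7, 114, 95.4 and 78.9 TPM in F/F. The W/W mouse of replicate 3 lay below all W/F mice and within the F/F range, and the other 3 lay above all mutants. F/F minus W/W was -1.45 ± 0.43 (SE), adjusted p = 0.00316 (-2.31 after rescaling). For W/F minus W/W on vehicle the value was -0.94 ± 0.43 (SE), adjusted p = 0.0540; without W/W vehicle replicate 3 it was -1.40, adjusted p = 0.00402, and after rescaling -1.60, adjusted p = 0.00250.

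T0901317 against vehicle was not called for Pklr in W/W (0.91 ± 0.43 (SE), adjusted p = 0.201, unadjusted 95% interval 0.03 to 1.78), W/F (0.54) or F/F (0.52), and after rescaling only in W/F (1.14, adjusted p = 0.0285). Chow groups overlapped widely: W/W had 278, 123, 65.6 and 194 TPM and F/F 121, 44.3, 105 and 97.7 TPM, a difference of -0.74 ± 0.43 (SE), adjusted p = 0.158. That value was -1.12, adjusted p = 0.0381 without W/W chow replicate 3. Hcn3, a channel gene on the opposite strand, shares 711 exon bases with Pklr and had a mean of 13.7 TPM against 187 TPM for Pklr over the 36 libraries. Whether counting used strand is not given in the sources used here, so reads of these 2 genes cannot be told apart where they overlap.

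Pcx (ENSMUSG00000024892, chromosome 19, 4510472 to 4621752, plus strand), pyruvate carboxylase, makes oxaloacetate from pyruvate, the first step of gluconeogenesis from lactate and alanine. Its coefficient of variation within groups, averaged over the 9 groups, was the smallest of the 9 genes. On vehicle it was 304, 394, 337 and 311 TPM in W/W, 210.3, 259.5, 267 and 283 TPM in W/F and 210.1, 247, 217 and 245 TPM in F/F. Every mutant mouse lay below every W/W mouse. The differences were -0.40 ± 0.092 (SE), adjusted p = 0.000308 in W/F and -0.54 ± 0.092 (SE), adjusted p = 3.64e-06 in F/F, and -1.06 and -1.41 after rescaling. With T0901317 W/W mice had 361, 367, 389.8 and 375 TPM, W/F mice 281, 314, 313 and 339 TPM and F/F mice 254, 239, 271 and 267 TPM. Again the groups order by mutant alleles: F/F was below W/W (-0.53 ± 0.092 (SE), adjusted p = 1.13e-05) and below W/F (-0.27 ± 0.092 (SE), adjusted p = 0.0111), and W/F minus W/W was -0.26 ± 0.092 (SE), adjusted p = 0.0676 although the mice of these 2 groups do not overlap. On chow the order was the other way as deposited, with 262, 232, 219 and 269 TPM in W/W and 299, 334, 270.0 and 309 TPM in F/F, a difference of 0.30 ± 0.092 (SE), adjusted p = 0.00795 that was -0.082, adjusted p = 0.622 after rescaling. The diet response was 0.45 ± 0.092 (SE), adjusted p = 0.00136 in W/W and -0.40 ± 0.092 (SE), adjusted p = 0.000505 in F/F, and the difference between them was -0.85 ± 0.13 (SE), adjusted p = 9.75e-06 (-1.33 after rescaling). For W/F the difference from the W/W diet response was -0.40 ± 0.13 (SE), adjusted p = 0.0108.

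Pck1 (ENSMUSG00000027513, chromosome 2, 173153048 to 173159273, plus strand), the cytosolic enzyme that commits oxaloacetate to glucose, had the highest mean of the 9 in 6 of the 9 groups, and Fbp1 in the others. As deposited it was higher in F/F than in W/W in all 3 treatments. On chow it was 1649, 2409.7, 1839 and 1063 TPM in W/W, 2365, 2608, 1297 and 2910.3 TPM in W/F and 2733, 2683, 2545 and 2859.6 TPM in F/F. All F/F mice lay above all W/W mice (0.69 ± 0.25 (SE), adjusted p = 0.0215; 0.31, adjusted p = 0.424 after rescaling), a call lost without W/W chow replicate 4 (0.48, adjusted p = 0.120) or F/F chow replicate 4. On vehicle it was 1094, 1045, 1086 and 589.9 TPM in W/W, 1519, 1564, 1882 and 1389 TPM in W/F and 1144, 1401, 1077 and 2113 TPM in F/F. W/F mice lay above all W/W mice, and F/F mice overlapped with W/W. W/F minus W/W was 0.77 ± 0.25 (SE), adjusted p = 0.00665, and F/F minus W/W was 0.58 ± 0.25 (SE), adjusted p = 0.0341; after rescaling these were 0.11 and -0.29, neither called. The F/F call was also lost without F/F vehicle replicate 4 (0.37, adjusted p = 0.179), without F/F vehicle replicate 2, with no filter on low values, or without W/W vehicle replicate 4 (0.36, adjusted p = 0.188), and the W/F call without W/W vehicle replicate 4 (0.55, adjusted p = 0.0502).

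T0901317 left Pck1 at 520.2, 732, 502 and 732 TPM in W/W, 776, 539, 617 and 737 TPM in W/F and 1518, 881, 1338 and 1125 TPM in F/F. The 4 F/F mice stand above all mice of the other 2 genotypes. Pck1 fell with the agonist in W/F (-1.26 ± 0.25 (SE), adjusted p = 5.28e-05; -0.65 after rescaling). In W/W the difference was -0.60 ± 0.25 (SE), adjusted p = 0.128, and -0.81, adjusted p = 0.0348 without W/W vehicle replicate 4; in F/F it was -0.21 ± 0.25 (SE), adjusted p = 0.513. The responses of W/F and F/F were not shown to differ from that of W/W (-0.66 ± 0.35 (SE), adjusted p = 0.104, and 0.38 ± 0.35 (SE), adjusted p = 0.420). F/F minus W/W with T0901317 was 0.96 ± 0.25 (SE), adjusted p = 0.00122 as deposited and 0.43, adjusted p = 0.191 after rescaling. On the MASH diet with vehicle Pck1 was lower than on chow in W/W (-0.85 ± 0.25 (SE), adjusted p = 0.0197, and -0.72, adjusted p = 0.0646 after rescaling). It was lower in F/F as well (-0.97 ± 0.25 (SE), adjusted p = 0.00135, and -1.32 after rescaling). The W/W call was lost without W/W chow replicate 2 or 3 or W/W vehicle replicate 4 (-0.63, adjusted p = 0.0920).

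Fbp1 (ENSMUSG00000069805, chromosome 13, 62864753 to 62888282, minus strand), which removes a phosphate from fructose-1,6-bisphosphate against glycolysis, moved with the agonist in opposite directions in W/W and W/F livers. In W/W it was 1101, 1119, 1056 and 1057 TPM on vehicle and 840.5, 695, 988 and 801 TPM with T0901317. Every treated W/W mouse lay below every vehicle mouse (-0.39 ± 0.11 (SE), adjusted p = 0.0165; -0.46 after rescaling). In W/F it was 805, 781, 848 and 953 TPM on vehicle and 1076, 1064, 1092 and 1139 TPM with T0901317, and in F/F 872, 854, 823 and 766 TPM and 906, 1030.3, 1053 and 1023 TPM. In both mutants every treated mouse lay above every vehicle mouse. The difference was 0.37 ± 0.11 (SE), adjusted p = 0.00394 in W/F and 0.27 ± 0.11 (SE), adjusted p = 0.0510 in F/F, the latter short of the threshold as deposited and called after rescaling (0.54, adjusted p = 0.0135). The difference between responses was 0.76 ± 0.16 (SE), adjusted p = 0.000123 for W/F and 0.67 ± 0.16 (SE), adjusted p = 0.00214 for F/F, and larger after rescaling (1.44 and 1.01). The fall in W/W rested in part on W/W T0901317 replicate 2, without which it was -0.31, adjusted p = 0.0967.

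Between genotypes on vehicle Fbp1 was lower in W/F (-0.36 ± 0.11 (SE), adjusted p = 0.00480) and in F/F (-0.39 ± 0.11 (SE), adjusted p = 0.00211), with no overlap with W/W, and the differences were -1.02 and -1.25 after rescaling. On chow the F/F mice were the highest of all groups, at 1492, 2119.9, 1565 and 1479 TPM, against 1256, 1337, 957 and 1206 TPM in W/W (0.48 ± 0.11 (SE), adjusted p = 0.000819; 0.093, adjusted p = 0.697 after rescaling). The fall from chow to MASH diet was therefore -0.99 ± 0.11 (SE), adjusted p = 1.31e-08 in F/F and -0.52 ± 0.11 (SE), adjusted p = 0.000166 in W/F, against -0.12 ± 0.11 (SE), adjusted p = 0.540 in W/W. Under T0901317 Fbp1 was higher in W/F than in W/W by 0.41 ± 0.11 (SE), adjusted p = 0.0143, lost without W/W T0901317 replicate 2 (0.32, adjusted p = 0.0758) and after rescaling (0.42, adjusted p = 0.0676). F/F minus W/W was 0.28 ± 0.11 (SE), adjusted p = 0.0271 there, with overlapping mice. That call was lost without any 1 of F/F T0901317 replicates 2, 3 and 4 and W/W T0901317 replicates 2 and 4, and the value was -0.25 after rescaling.

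G6pc (ENSMUSG00000078650, chromosome 11, 101367561 to 101377903, plus strand) encodes the catalytic subunit that releases free glucose, shared by gluconeogenesis and glycogen breakdown. On the MASH diet with vehicle it was low in both mutants and variable in W/W. On vehicle it was 461, 243, 87.5 and 587 TPM in W/W, 151, 94.4, 119 and 88.3 TPM in W/F and 36.6, 125, 104 and 159.5 TPM in F/F. Of the 4 W/W mice 3 lay above all mutants, and replicate 3, the W/W mouse that was also lowest for Pklr and Khk, lay below all W/F mice and within the F/F range. F/F minus W/W was -1.55 ± 0.42 (SE), adjusted p = 0.00151 (-2.41 after rescaling). W/F minus W/W was -1.31 ± 0.42 (SE), adjusted p = 0.00715, and -0.95, adjusted p = 0.0519 without W/W vehicle replicate 4. With T0901317 W/F mice had 371, 225, 164 and 288 TPM, all above the W/F vehicle mice (1.17 ± 0.42 (SE), adjusted p = 0.0159; 1.78 after rescaling), a call lost without W/F T0901317 replicate 1 (0.99, adjusted p = 0.0627). F/F mice had 134, 72.8, 187 and 155 TPM, all below the W/W mice at 367, 283, 312 and 279.6 TPM; the difference was -1.24 ± 0.42 (SE), adjusted p = 0.0120, and -0.97, adjusted p = 0.0634 without F/F T0901317 replicate 2. On the MASH diet with vehicle G6pc was lower than on chow in W/F (-1.31 ± 0.42 (SE), adjusted p = 0.00851) and in F/F (-1.74 ± 0.42 (SE), adjusted p = 0.000865). In W/W that difference was not called (-0.42 ± 0.42 (SE), adjusted p = 0.606). The diet responses of F/F and W/W differed by -1.33 ± 0.60 (SE), adjusted p = 0.0702, and by -1.80, adjusted p = 0.0295 after rescaling. Without W/W vehicle replicate 3 the deposited value was -1.87, adjusted p = 0.00488.

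Ppargc1a (ENSMUSG00000029167, chromosome 5, 51454250 to 51567726, minus strand), the coactivator, was expressed at 1.18 to 14.6 TPM over all mice and had the widest range of group means, a ratio of 7.01. It was higher in F/F than in W/W livers on chow and on vehicle. On chow it was 3.96, 4.76, 2.41 and 3.13 TPM in W/W, 5.49, 4.27, 3.08 and 4.17 TPM in W/F and 5.34, 9.59, 14.6 and 8.77 TPM in F/F. Every F/F mouse lay above every W/W mouse (1.17 ± 0.20 (SE), adjusted p = 4.22e-05; 0.84 after rescaling). On vehicle it was 1.33, 2.20, 2.15 and 1.73 TPM in W/W, 3.79, 5.10, 5.10 and 2.34 TPM in W/F and 7.64, 6.20, 4.90 and 6.15 TPM in F/F. All mutant mice lay above all W/W mice, by 0.80 ± 0.20 (SE), adjusted p = 0.000943 in W/F and 1.34 ± 0.20 (SE), adjusted p = 7.79e-07 in F/F. After rescaling the F/F difference was 0.67, adjusted p = 0.00382 and the W/F difference 0.32, adjusted p = 0.171. Of the 9 genes, Ppargc1a alone was called higher in F/F than in W/W on vehicle on both scales. F/F minus W/F was 0.54 ± 0.20 (SE), adjusted p = 0.0595, and 0.64, adjusted p = 0.0428 without W/F vehicle replicate 2, with a call also gained without F/F vehicle replicate 3 or W/F vehicle replicate 3.

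T0901317 brought Ppargc1a down in both mutants. Levels were 1.62, 2.30, 1.97 and 2.19 TPM in W/W, 1.36, 1.65, 1.18 and 1.27 TPM in W/F and 3.17, 3.57, 3.08 and 2.51 TPM in F/F. Every treated mutant lay below every vehicle mutant of its genotype (-1.07 ± 0.20 (SE), adjusted p = 4.07e-05 in W/F, and -0.82 ± 0.20 (SE), adjusted p = 0.00339 in F/F), and after rescaling the falls were -0.64 and -0.57. In W/W the 2 groups overlapped (0.088 ± 0.20 (SE), adjusted p = 0.870). The response of W/F differed from that of W/W by -1.15 ± 0.29 (SE), adjusted p = 0.00113 (-0.69, adjusted p = 0.0434 after rescaling) and that of F/F by -0.90 ± 0.29 (SE), adjusted p = 0.0188 (-0.61, adjusted p = 0.127 after rescaling). On the MASH diet with vehicle Ppargc1a was lower than on chow in W/W (-0.66 ± 0.20 (SE), adjusted p = 0.0295). That call was lost without any 1 of W/W chow replicates 1 and 2 and W/W vehicle replicates 1 and 4. In F/F the diet difference was -0.49 ± 0.20 (SE), adjusted p = 0.0421, lost without any 1 of F/F chow replicates 2, 3 and 4 and F/F vehicle replicates 2, 3 and 4, and down to -0.28, adjusted p = 0.245 without F/F chow replicate 3.

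Ratios within a library do not depend on the scale, and 2 pairs of opposed enzymes and several isozyme pairs were compared in that way; the pairs were chosen after the values above were seen, so they are given as values with no test. The ratio of Pck1 to Pklr with T0901317 was 1.40 ± 0.576 (mean ± SD, n = 4) in W/W mice, 3.54 ± 0.613 in W/F mice and 9.35 ± 2.23 in F/F mice, and the 3 genotypes did not overlap. On vehicle the ratio was 1.22 to 11.4 in W/W and 11.3 to 26.8 in F/F, where 1 W/W mouse reached the F/F range. The ratio of Fbp1 to Pfkl, the liver phosphofructokinase that runs the same step the other way, on vehicle was 45.5 ± 6.35 in W/W mice, 22.7 ± 1.36 in W/F mice and 14.7 ± 1.05 in F/F mice, with no overlap with W/W. With T0901317 it was 33.0 ± 7.67, 44.2 ± 8.69 and 27.4 ± 5.72; both mutants overlapped with W/W, and W/F lay above F/F with no overlap.

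**Figure D3:**
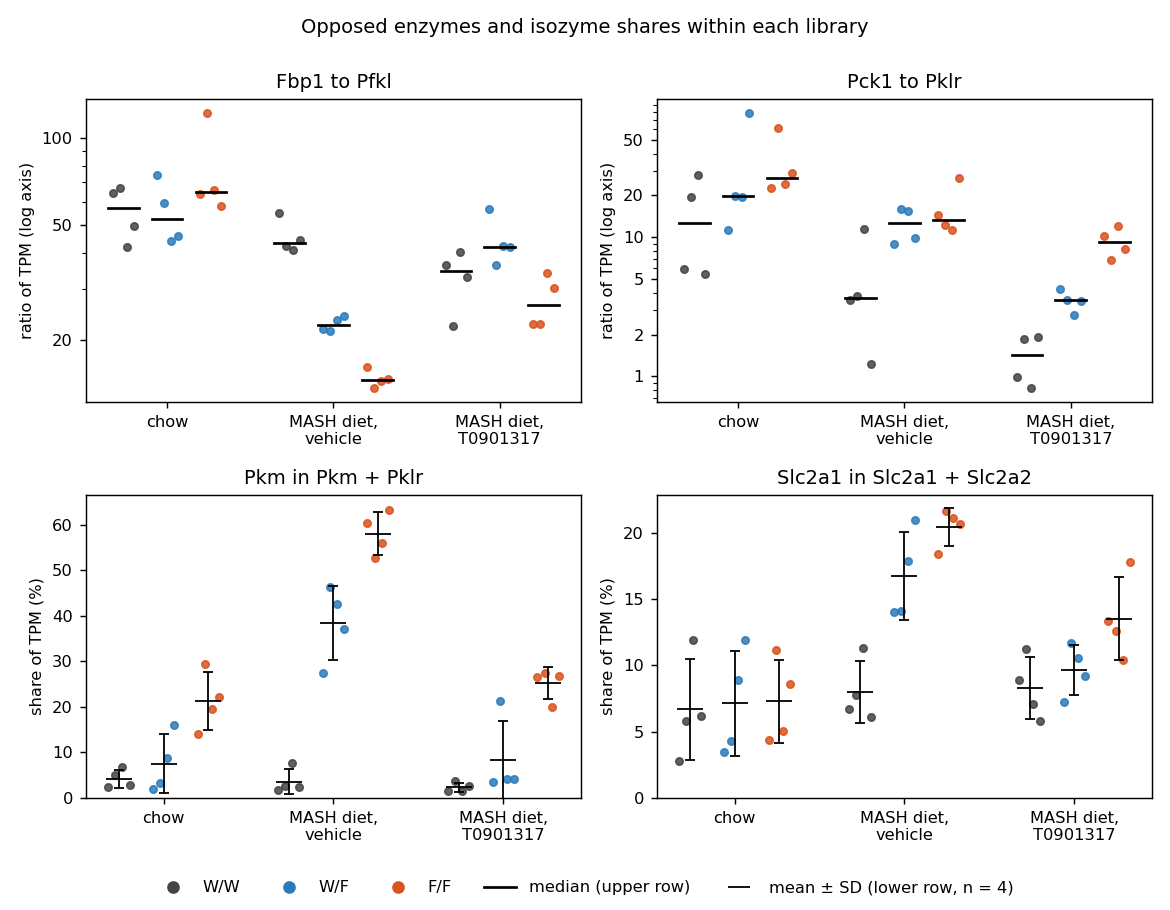
Top, ratio of TPM of 2 opposed enzymes in each mouse on a log axis, with the median of 4 as a line; bottom, share of one isozyme or transporter in the summed TPM of its pair or set (%), with mean ± SD; groups by diet and treatment, colour by genotype. The Pkm share on vehicle lies between 52.6% and 63.3% in F/F and between 1.74% and 7.74% in W/W.

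On vehicle, Pklr, Slc2a2, Pck1 and G6pc made up a smaller part of their pairs in both mutants, with no overlap with W/W. Pkm, the pyruvate kinase of muscle and of macrophages, made up 3.60 ± 2.78% of the summed TPM of Pkm and Pklr in W/W on vehicle, 38.3 ± 8.14% in W/F and 58.0 ± 4.71% in F/F. Under T0901317 the shares were 2.34 ± 1.02%, 8.26 ± 8.73% and 25.1 ± 3.50%. In W/F T0901317, replicate 2 reached 21.3% and the other 3 lay at 4.15% or below. With T0901317 the W/F shares of Pkm, Slc2a1, Pck2 and G6pc3 overlapped those of W/W. The share of Slc2a1, the GLUT1 transporter, in Slc2a1 and Slc2a2 was 7.99 ± 2.34% in W/W on vehicle and 20.5 ± 1.43% in F/F. Pck2, the mitochondrial form, stayed a small part of Pck1 and Pck2 at 0.329 ± 0.151% in W/W and 1.55 ± 0.407% in F/F, and G6pc3 made up 3.10 ± 2.42% and 19.8 ± 12.6% of G6pc3 and G6pc. W/W vehicle replicate 3 stood at 6.66% there and the other 3 at 1.33% to 2.55%, and F/F vehicle replicate 1 at 38.7% and the other 3 at 12.6% to 14.6%. Fbp2, the muscle form, was a very small part of Fbp1 and Fbp2 throughout. With T0901317 its share was 0.0428 to 0.619% in W/W, lower in W/F at 0.00660 to 0.0252%, and overlapping W/W in F/F at 0.0272 to 0.0628%. On vehicle the F/F share, 0.0713 to 0.147%, lay above that of W/W, 0.0216 to 0.0565%. On vehicle the summed macrophage markers were higher in both mutants than in W/W, and stellate cell, bile duct and neutrophil markers rose in F/F, as given above. With T0901317 the mean Fbp2 share was 0.254% in W/W and 0.0443% in F/F, while the summed macrophage markers averaged 263 and 1722 TPM. The part of these markers in the shares was not tested.

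Other genes of the pathway were counted as whole lists, to be read against all tested genes: in F/F against W/W on vehicle 69.3% were called higher and 7.13% lower with a median of 0.70, and after rescaling 31% and 28.1% with a median of 0.030. Of 20 glycolysis genes, 16 were higher and 3 lower in F/F than in W/W on vehicle, a share higher that lies near that of all genes, with a median of 0.85; after rescaling 7 were higher and 8 lower. Pkm rose from 8.08 ± 2.71 TPM (SD, n = 4) to 126 ± 7.52 TPM (3.85 ± 0.31 (SE), adjusted p = 4.32e-12), and Hk3, a hexokinase of white blood cells, by 3.13. Both kept their direction after rescaling (3.02 and 2.36). Of 13 further gluconeogenesis genes, 5 were higher and 4 lower (median -0.15; 2 and 9 after rescaling), and of 9 genes of fructose, polyol and galactose handling 2 were higher and 5 lower (median -0.29; 1 and 6 after rescaling). The 2 higher were Akr1b3, aldose reductase (1.59; 0.89 after rescaling), and the transporter Slc2a8 (0.68; -0.12 after rescaling, not called).

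Against the same 69.3% higher and 7.13% lower of all genes, with a median of 0.70, of 14 genes of pyruvate fate 5 were higher and 5 lower in F/F on vehicle (median 0.067; 4 and 10 after rescaling). Pdk4, the kinase that shuts off pyruvate dehydrogenase, was higher by 2.17, and Pdp1, a phosphatase that acts against it, by 2.17. Of 16 glycogen genes, 8 were higher and 6 lower (median 0.33; 5 and 8 after rescaling). The brain form of glycogen phosphorylase, Pygb, rose from 1.80 ± 0.378 TPM to 54.3 ± 4.86 TPM (4.31 ± 0.18 (SE), adjusted p = 5.25e-18), and glycogenin, Gyg, by 2.32. Among 5 tested hexose transporters beyond Slc2a2, of 8 listed, 3 were higher and 1 lower (median 1.21; 3 and 2 after rescaling), with Slc5a1, the sodium-coupled SGLT1, higher by 3.10 and Slc2a1 by 1.21. After rescaling the differences were 1.45 for Pdk4, 1.63 for Pdp1, 3.57 for Pygb, 1.52 for Gyg, 2.45 for Slc5a1 and 0.39, adjusted p = 0.0241, for Slc2a1. Of 24 regulators of glucose genes, 13 were higher and 4 lower (median 0.24; 4 and 16 after rescaling). Mlxipl fell from 212 ± 40.5 TPM to 66.1 ± 8.79 TPM (-1.66 ± 0.17 (SE), adjusted p = 2.69e-10; -2.51 after rescaling). The insulin-repressed Igfbp1 and the kinase Sik1, which is induced by cAMP, rose by 2.92 and 2.17 (2.06 and 1.36 after rescaling).

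The pentose phosphate pathway, which draws glucose-6-phosphate off to make NADPH, was counted in the agonist comparisons of W/W and W/F. The lists above were counted in F/F against W/W on vehicle instead, so its counts cannot be set beside theirs. Its counts in F/F livers are not given here. In W/W, 5 of its 8 genes were higher with T0901317 and 0 lower, on both scales, with a median of 0.65 beside 0.057 for all genes, of which 7.87% were called higher and 2.91% lower (8% and 5.52% after rescaling). In W/F, 0 were higher and 5 lower as deposited, a share near the 59.3% of all genes called lower, and 2 higher and 2 lower after rescaling, against 23.6% and 27.1% of all genes. G6pdx, glucose-6-phosphate dehydrogenase, was 3.34 ± 1.44 TPM (SD, n = 4) on vehicle and 45.4 ± 7.30 TPM with T0901317 in W/W (3.47 ± 0.27 (SE), adjusted p = 1.54e-10). In W/F it was 17.9 ± 2.32 TPM and 4.12 ± 3.21 TPM (-2.06 ± 0.27 (SE), adjusted p = 1.88e-07), and in F/F 22.6 ± 1.87 TPM and 11.4 ± 2.68 TPM (-0.96 ± 0.27 (SE), adjusted p = 0.00851). G6pdx kept these directions after rescaling (3.47, -1.54 and -0.69, in the same order, the last with an adjusted p of 0.0570). Some macrophage markers moved with G6pdx. In W/F the 6 Kupffer cell and macrophage markers summed to 2545 to 3337 TPM on vehicle and 139.6 to 946 TPM with T0901317, and in F/F to 3109 to 4047 and 1226 to 1977 TPM. In W/W, 4 markers of lipid-associated macrophages summed to 63.8 to 71.1 TPM on vehicle and 121 to 199.5 TPM with T0901317. The Kupffer cell and macrophage sums of W/W overlapped, at 161 to 302 and 175 to 353 TPM. Their part was not tested.

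With group means removed, Pearson's r over the 36 libraries was 0.84 for Pklr with Khk, 0.78 for Pklr with Slc2a2 and 0.75 for Khk with Slc2a2, given as a description of values that share a library. Replicate 3 of W/W chow, replicate 4 of W/F chow, replicate 2 of F/F chow and replicate 3 of W/W vehicle were each the lowest of their group for all 3 genes. In the other 5 groups no mouse was the lowest for all 3, and F/F T0901317 replicate 3 was lowest for Pklr and Khk and highest for Slc2a2. Pck1 with Ppargc1a had r = 0.76 over all libraries and 0.24 with group means removed, and Khk with Ppargc1a -0.80 and -0.24. For these pairs the correlation was thus weaker among mice of a group than over all libraries.

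**Figure D4:**
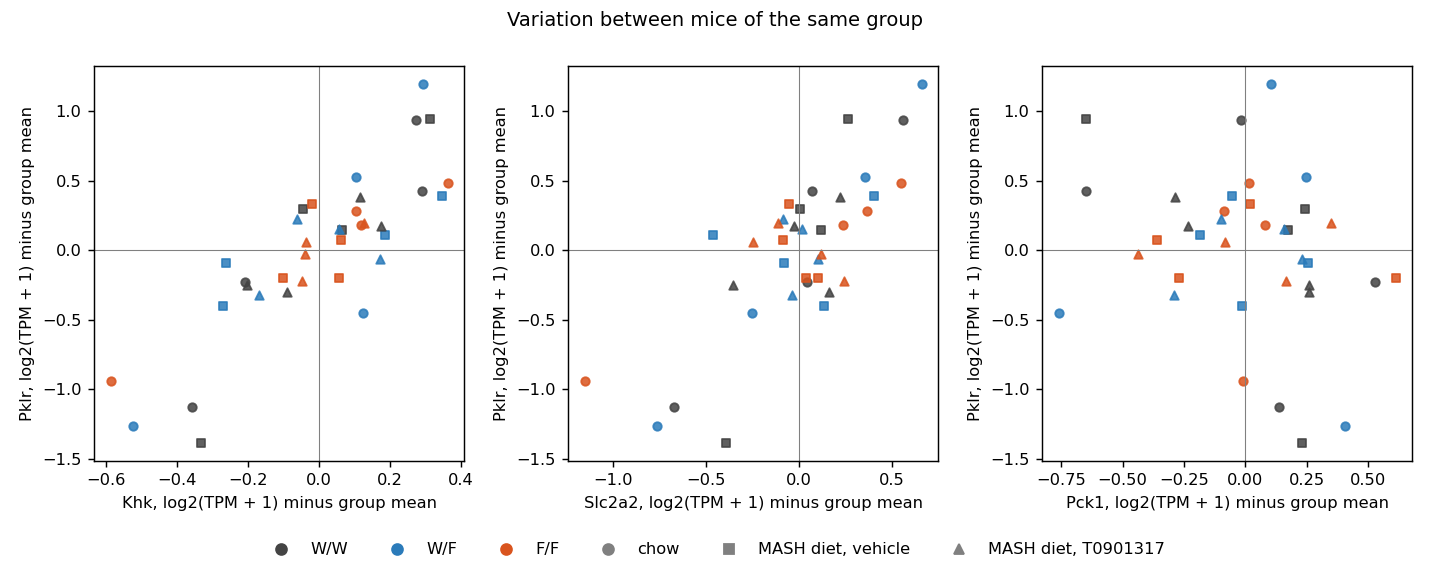
Deviation of Pklr from its group mean in log2(TPM + 1) (vertical axes) against the deviation of Khk, Slc2a2 and Pck1 (horizontal axes), 1 point per mouse, colour by genotype and shape by treatment. Pklr follows Khk (r = 0.84) and Slc2a2 (r = 0.78), and has r = -0.26 with Pck1.

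For each of the 9 genes the most similar patterns over the 36 libraries were sought among 9224 genes with a mean of at least 5 TPM. Pklr was closest to its overlapping neighbour Hcn3 (r = 0.94), then to the mitochondrial glycerol-3-phosphate dehydrogenase Gpd2 (0.86). Among the genes closest to Khk was Thrsp (0.89), a lipogenic nuclear protein. Pck1 was closest to the amino acid transporter Slc38a2 (0.92), and Ppargc1a to Uhrf1bp1l (0.93) and the kinase Hipk3 (0.91). Fbp1 came nearest to Egfr (0.86), and G6pc to Aldh1l1 (0.77). Among the genes closest to Pcx was Suclg1 (0.82), a subunit of a citric acid cycle enzyme. Gckr and Slc2a2, whose group means ranged least as deposited, had their nearest patterns in Vps13d (0.76) and in the liver glycogen synthase Gys2 (0.75). With group means removed, r among these named pairs ran from 0.26 for G6pc with Aldh1l1 to 0.94 for Pklr with Hcn3. It was 0.30 for Pcx with Suclg1 and 0.54 for Fbp1 with Egfr. The libraries share composition as well as treatment, so these values describe likeness only.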

How the data were processed

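The deposited table holds TPM for 49315 genes in 36 livers, made by the authors from polyA RNA reads; per the submitters' processing notes, Trimmomatic 0.36, STAR 2.5.2b, featureCounts, Subread 1.5.2 and GRCm38/mm10 were used, and the strand setting and annotation release are not given in the sources used here. TPM keep no totals, so depth was recovered from the spacing of low values, of which 92.9% to 95.0% lay within 0.1 of a whole read (20% by chance).

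The 16638 genes that reached 1 TPM in 4 or more samples were tested. Values of log2(TPM + 1) went into limma 3.58.1 (R 4.3.3; 9 group means, 19 contrasts, mean-variance trend), tested on simulated data first. P-values were adjusted after Benjamini and Hochberg over all tested genes in each contrast. Rescaled TPM used median-of-ratios factors over 14786 genes (0.693 to 1.48). Alternatives were a pseudocount of 0.1, a filter of 5 TPM, no filter, rescaled TPM, a replicate block, a fit of the compared groups alone, and leaving out each library.

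The 9 genes and all lists were chosen with earlier results of these data known. Named from the lists were Pkm, Mlxipl, Slc2a1, G6pdx and, per list, the 2 called genes with the largest difference in F/F against W/W on vehicle among those with at least 5 TPM and no overlap of mice. Of these, Pgd was 2.47 higher as deposited. Some further genes of the lists and of the search for similar patterns are not reported here. Pfkl and the ratio pairs were chosen after values were seen. Replicate numbers did not pair the samples: in 0 of 36 pairs of groups was every correlation of same-numbered mice over 0.1. Sequences and coordinates are from RefSeq and the GRCm38 annotation.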

Additional observations from a re-analysis of the deposited data

Results flagged for a closer look

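In 3 of the 81 sets of 4 mice (9 genes in 9 groups) 1 library stood apart from the other 3 by Dixon's criterion, which chance alone meets in about 1 of 20 groups. Khk in F/F T0901317 replicate 1 was 495 TPM, the highest of its group. Pck1 in W/W vehicle replicate 4 was 589.9 TPM, the lowest of its group, and without it both Pck1 calls on vehicle were lost, as given above. Fbp1 in F/F chow replicate 2 was 2119.9 TPM, the highest of its group.

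For 13 responses the test of the difference between genotypes passed an adjusted p of 0.05 in limma. For the T0901317 response, 58.5% of all genes were called in W/F against W/W and 30.4% in F/F against W/W. For the diet response these shares were 54.6% and 46%, in the same order. Such calls were thus common over all genes, and do not by themselves set the genes named here apart. The T0901317 response of W/F differed from that of W/W by -0.59 for Gckr, 0.96 for Khk, 0.76 for Fbp1 and -1.15 for Ppargc1a on the log2 scale. That of F/F differed from W/W by 1.05 for Khk, 0.67 for Fbp1 and -0.90 for Ppargc1a. The diet response of W/F differed from that of W/W by -0.95 for Khk, -0.39 for Fbp1 and -0.40 for Pcx, and that of F/F by -0.98 for Khk, -0.87 for Fbp1 and -0.85 for Pcx. The Fbp1 value for the diet response of W/F was lost without any 1 of 7 libraries, among them W/W chow replicate 3 (-0.29, adjusted p = 0.103). The Gckr value was lost without any 1 of 5 libraries, and after rescaling it was 0.078, adjusted p = 0.765. After rescaling the Ppargc1a value for F/F was -0.61 and not called.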

How the results depend on the processing

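Of 171 single-gene differences, 118 kept their side of the threshold on rescaled TPM, 33 passed only there and 11 only as deposited. The other 9, called on at least 1 scale, changed direction, and the cause was not tested. These were T0901317 against vehicle in W/F for Gckr (0.092), Gckr (-0.31) and Pcx (-0.45) for diet in W/F, Gckr (-0.45) between W/F and W/W vehicle mice, Pcx (-0.082) between F/F and W/W chow mice, Pck1 (-0.29) between F/F and W/W vehicle mice, Fbp1 (-0.25) between F/F and W/W agonist mice, Pcx (-0.047) between F/F and W/F chow mice, and the W/F minus W/W response to T0901317 for Gckr (0.078). Rescaling gave 5 called genes for T0901317 in F/F, 8 for diet in W/F, 8 for diet in F/F, 3 between F/F and W/F vehicle mice and 5 between them with T0901317. W/F against W/W with T0901317 gave 2 with a pseudocount of 0.1 and 2 with the 5 TPM filter. Fits of the compared groups alone gave 0 for T0901317 in W/W, 4 for T0901317 in F/F, 0 for diet in W/W, 1 between F/F and W/F vehicle mice and 6 between them with T0901317. Apart from rescaled TPM, the share of all genes called was not counted for any alternative, leaving out libraries included. Counts of the 9 genes under them thus cannot be set against all genes.

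Leaving out 1 library at a time gave 0 to 2 called genes for T0901317 in W/W, 2 to 4 for diet in W/W, 0 to 1 between W/F and W/W agonist mice, 3 to 6 between F/F and W/W on either chow or T0901317, and 0 to 2 between F/F and W/F vehicle mice. With a replicate block, 6 single-gene differences were gained and 0 lost, and the counts became 3 between W/F and W/W agonist mice and 1 between F/F and W/F vehicle mice; the numbers were not found to pair the mice, so this is no paired result. Depth limits Ppargc1a most, and differences of log2(TPM + 1) understate its changes.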
